A study of Homo sapiens with 6 samples.

Results

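The ADAMTS proteases and the TIMP inhibitors are secreted proteins that cut, and restrain the cutting of, the extracellular matrix. The 10 genes described here are 7 ADAMTS proteases (ADAMTS1, ADAMTS6, ADAMTS7, ADAMTS9, ADAMTS10, ADAMTS13 and ADAMTS15) and 3 tissue inhibitors of metalloproteinases (TIMP1, TIMP2 and TIMP3), out of 58721 genes in the count table. They were listed by symbol with the R98W against WT comparison of these data already known, so their differences between the groups are given as a description and without a test. All 10 passed the filter on low counts, as did 20713 genes in all. RNA came from A549, an established human lung adenocarcinoma cell line grown in DMEM with serum. The labels give overexpression of KAT8 for all 6 libraries, of its normal form in 3 (WT) and of a form with the R98W substitution in 3 (R98W), so both groups are labelled as carrying an introduced KAT8. The measured KAT8 level goes against that label in 1 WT library, described below. KAT8, also called MOF, is a lysine acetyltransferase of histone H4, and the substitution lies in its Tudor-knot domain. The labels do not say how the gene was introduced, whether the lines are single clones or whether replicates were separate cultures, so a p-value here speaks for the scatter among these 6 libraries, possibly a technical one.

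ADAMTS proteases are zinc metalloproteases with thrombospondin-type repeats that can anchor them in the matrix. Between them they trim proteoglycans, procollagens and fibrillin microfibrils there, and von Willebrand factor in plasma. TIMPs plug the active site of matrix metalloproteinases, and TIMP3, which binds to the matrix, also blocks several ADAMTS and ADAM enzymes. In epithelial tumours the balance between these enzymes and inhibitors shapes the matrix around the cells.

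Library totals ran from 90007121 to 110152936 counts. Levels below are CPM, read counts relative to the library total, after TMM scaling, and a gene is called higher or lower where the edgeR quasi-likelihood test gave a Benjamini-Hochberg adjusted p under 0.05 over all genes tested. KAT8 stood at 12.2 CPM in the library labelled WT replicate 1, against 195 and 184 CPM in WT replicates 2 and 3 and 166, 196 and 236 CPM in R98W replicates 1 to 3. Some results are therefore also given without that library. The group means, summed levels, ratios, order of levels and most values of single list genes include it. Of 8 epithelial markers, KRT8 stood at 4441 ± 54 CPM (SD, n = 3) in WT and CDH1 at 138 to 166 CPM over the 6 libraries, while EPCAM was scarce. In this list 2 genes were called higher in R98W (KRT19, log2 fold change 0.48, and AKR1B10, 0.29). Called lower were 2 (EPCAM, -0.86, and ALDH1A1, -0.20). The part of these genes in the results was not tested. Over all genes tested 16.2% were higher and 18.5% lower. ALDH1A1 lost its call without R98W replicate 3 (edgeR adjusted p = 0.0822) and at a threshold of 0.01. After a correction for a trend with expression level AKR1B10 was not called (edgeR adjusted p = 0.664). KRT8, KRT18 and KRT7 were then called lower (log2 fold change -0.27, -0.37 and -0.28). Of the fibroblast, endothelial and leukocyte lists, 6 of 8, 5 of 6 and 5 of 6 genes had a mean under 1 CPM, with the fibroblast gene DCN at 0 or 1 count per library and CD3E at 0 in all 6. The summed fibroblast level was 12.7 to 17.0 CPM in WT and 12.4 to 14.1 CPM in R98W, most of it from COL1A1. The endothelial sum was 2.85 to 3.23 and 1.69 to 1.93 CPM, and the leukocyte sum 7.54 to 8.43 and 6.27 to 8.80 CPM, most of it from CD14. Within these lists THY1 was lower in R98W (2.01 ± 0.37 against 0.341 ± 0.058 CPM, edgeR adjusted p = 2.43e-07), as was ESAM (edgeR adjusted p = 0.00422), and their part in the results was not tested. In bulk RNA, fewer cells of a type and less RNA per cell cannot be told apart.

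The 10 genes did not move as a block. ADAMTS1 and TIMP3, both scarce in WT, were several times as high in R98W, ADAMTS13 was well below its WT level, and the abundant inhibitor TIMP1 was modestly lower. In the fit across all genes, 4 of the 10 were higher (ADAMTS1, ADAMTS9, ADAMTS15 and TIMP3) and 2 lower (ADAMTS13 and TIMP1). Over all genes tested the share called was 34.8%, with 16.2% higher and 18.5% lower, and since the genes were chosen on this comparison nothing is read from their count. The balance over all genes turned to more higher than lower calls after a correction for exon length (3952 and 3578) or GC content (3885 and 3716). The WT and R98W libraries did not overlap for 8 of the 10, against 45.6% of all genes tested (21.3% with R98W above and 24.2% with R98W below). Leaving out WT replicate 3 or R98W replicate 3 left 4 of the 10 called, and leaving out the library labelled WT replicate 1 left 5, with 3 higher and 2 lower.

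**Figure D1:**
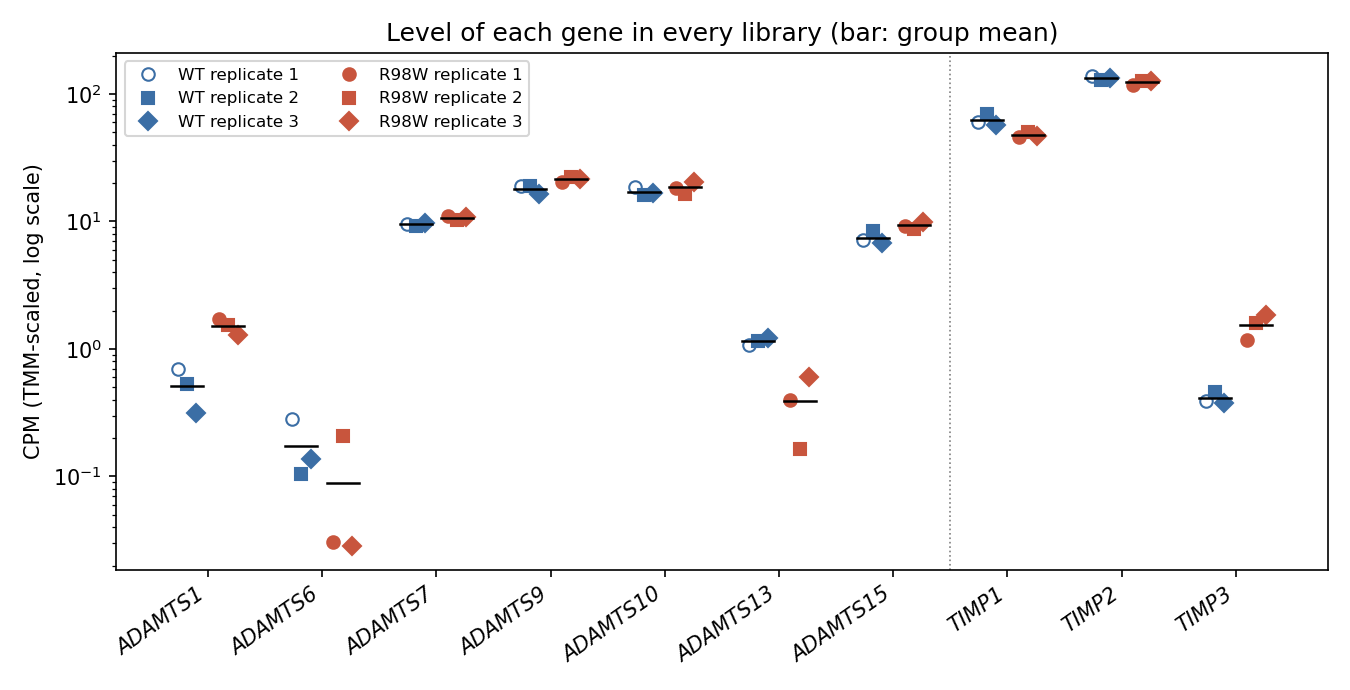
Level of each of the 10 genes in the 3 WT (blue) and 3 R98W (red) libraries, in CPM on a log axis, with a black bar at each group mean, the library labelled WT replicate 1 as an open circle and a dotted line between proteases and inhibitors. ADAMTS1, ADAMTS13 and TIMP3 separate most between the groups, while ADAMTS6 scatters within both and ADAMTS10 overlaps.

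Among the 7 selected proteases, ADAMTS1 had the highest log2 fold change. ADAMTS1 (ENSG00000154734, chromosome 21, 26835747 to 26845409, hg38), which cleaves versican and aggrecan, stood at 0.693, 0.530 and 0.316 CPM in WT replicates 1 to 3 and at 1.71, 1.55 and 1.29 CPM in R98W replicates 1 to 3. Every R98W library lay above every WT library, although the lowest and highest WT libraries also were well apart. The values rest on 30 to 69 counts per WT library and 136 to 168 per R98W library. The log2 fold change was 1.56 (SE 0.27), a level 2.94 times that of WT, or 1.81 when the library labelled WT replicate 1 was dropped. Within WT the coefficient of variation was 36.9%, against 13.7% from counting error alone.

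ADAMTS13 (ENSG00000160323, chromosome 9, 133414358 to 133459402), the protease that cuts von Willebrand factor in plasma, went the other way. It stood at 1.07, 1.15 and 1.21 CPM in WT and at 0.397, 0.165 and 0.606 CPM in R98W. The WT libraries were close together, whereas the R98W libraries were low and uneven, from 16 to 64 counts. The log2 fold change was -1.54 (SE 0.33), and it ran from -2.02 to -1.18 over the fits that left out a library. The gene body overlaps REXO4 on the opposite strand with no shared exon bases. REXO4 itself stood at 37.8 CPM in WT and 26.0 CPM in R98W, and its part in the ADAMTS13 difference was not tested. The gene that encodes the ADAMTS13 substrate, VWF, had 0 to 8 counts per library.

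ADAMTS9 and ADAMTS15 were slightly higher in R98W. ADAMTS9 (chromosome 3, 64515654 to 64688000), a large versican-cleaving enzyme, stood at 19.0, 18.9 and 16.4 CPM in WT and 20.4, 22.5 and 21.7 CPM in R98W. The groups did not overlap, but WT replicates 1 and 2 lay nearer to the lowest R98W library than to WT replicate 3. Its log2 fold change was 0.25 (SE 0.09), and it no longer passed the threshold without WT replicate 3 (0.18), R98W replicate 2 (0.22) or R98W replicate 3 (0.25). ADAMTS15 (chromosome 11, 130448974 to 130476641), another versican-cleaving member, stood at 7.14, 8.48 and 6.77 CPM in WT and 9.29, 8.77 and 9.91 CPM in R98W. Here WT replicate 2 came close to R98W replicate 2 without an overlap. The log2 fold change of 0.32 (SE 0.11) failed the threshold without the library labelled WT replicate 1 (0.28), WT replicate 3 (0.25), R98W replicate 1 (0.33) or R98W replicate 3 (0.28).

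ADAMTS7 and ADAMTS10 were nearly level between the groups. ADAMTS7 (chromosome 15, 78759203 to 78811431), which cleaves cartilage oligomeric matrix protein, stood at 9.59, 9.22 and 9.80 CPM in WT and 11.0, 10.3 and 10.8 CPM in R98W. The groups stood apart without overlap, with a log2 fold change of 0.17 (SE 0.10) that was not called. It has 3 transcribed pseudogene copies, ADAMTS7P1, ADAMTS7P3 and ADAMTS7P4, each with 9 to 96 counts per library against 930 to 1140 for the gene, so how reads were divided among the copies is uncertain. ADAMTS10 (chromosome 19, 8580242 to 8610735), which acts on fibrillin microfibrils, stood at 18.5, 16.1 and 16.8 CPM in WT and 18.4, 16.5 and 20.5 CPM in R98W. These ranges overlapped, and the log2 fold change was 0.11 (SE 0.09).

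ADAMTS6 (chromosome 5, 65148736 to 65481920), the closest relative of ADAMTS10, was too scarce to place. It had 28, 12 and 13 counts in WT and 3, 20 and 3 counts in R98W, or 0.281, 0.104 and 0.137 CPM against 0.0306, 0.207 and 0.0284 CPM. R98W replicate 2 lay inside the WT range and the other R98W libraries lay below it. The log2 fold change of -0.97 (SE 0.70) became -0.46 without the library labelled WT replicate 1 and -2.51 without R98W replicate 2, where it passed the threshold.

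The inhibitors diverged. TIMP3 (ENSG00000100234, chromosome 22, 32801701 to 32863043), the matrix-bound inhibitor of ADAMTS enzymes, stood at 0.392, 0.461 and 0.379 CPM in WT and 1.18, 1.60 and 1.85 CPM in R98W. All R98W libraries were well above all WT libraries, from 116 to 195 counts against 36 to 53. The log2 fold change was 1.90 (SE 0.25), a level 3.74 times that of WT, and 99.9% of the genes tested had a lower one. It ran from 1.76 to 2.07 over the fits that left out a library. The gene lies within SYN3, which is on the opposite strand and did not pass the filter.

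TIMP1 (ENSG00000102265, chromosome X, 47582313 to 47586789), a broad inhibitor of matrix metalloproteinases, stood at 60.4, 70.0 and 57.6 CPM in WT and 46.3, 50.03 and 46.5 CPM in R98W. No library of one group reached the range of the other. The log2 fold change was -0.40 (SE 0.08), or 0.760 of the WT level, or -0.43 when the library labelled WT replicate 1 was dropped. The gene lies within SYN1 on the opposite strand with no shared exon bases. TIMP2 (ENSG00000035862, chromosome 17, 78852977 to 78925387), which also takes part in activating pro-MMP2 at the cell surface, stood at 137, 128 and 132 CPM in WT and 117, 127 and 126 CPM in R98W. The groups almost touched, and the log2 fold change of -0.10 (SE 0.06) was not called. A correction for a trend with expression level moved TIMP2 to -0.22, ADAMTS7 to 0.26 and both past the threshold. This made 8 of the 10 called (5 higher and 3 lower). Over all 20713 genes tested the same correction called 6615 (3037 higher and 3578 lower), and nothing is read from the count among the 10.

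The RefSeq promoter table (GRCh38.p14) held ADAMTS6, ADAMTS7, ADAMTS10, ADAMTS13, TIMP1 and TIMP3 among the 10 genes. ADAMTS1, ADAMTS9, ADAMTS15 and TIMP2 had no entry. The RefSeq start can lie inside the GENCODE gene, for example by 123 bases for TIMP1 and 439 for TIMP4. It lay 8009 bases inside for ADAMTS13 and 18519 for 1 of the 2 ADAMTS10 windows, so these windows precede internal starts. The windows of TIMP4 and ADAMTS13 lie wholly in annotated exons and are not printed. For TIMP3 and TIMP1, whose levels went in opposite directions, the part of the window before the first annotated exon base is shown. Both read 5′ to 3′ on the plus strand, and capitals mark exact GC boxes (GGGCGG) and CCAAT boxes (CCAAT) on either strand.
TIMP3: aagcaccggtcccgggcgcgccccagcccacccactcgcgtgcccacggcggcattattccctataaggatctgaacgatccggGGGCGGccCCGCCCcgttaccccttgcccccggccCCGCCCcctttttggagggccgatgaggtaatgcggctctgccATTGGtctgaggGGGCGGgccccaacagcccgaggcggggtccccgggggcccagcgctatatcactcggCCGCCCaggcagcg
TIMP1: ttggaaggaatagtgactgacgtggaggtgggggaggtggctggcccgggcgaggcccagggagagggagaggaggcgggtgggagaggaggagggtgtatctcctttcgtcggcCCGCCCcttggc
They lie at chr22:32801455-32801700 (TIMP3) and chrX:47582186-47582312 (TIMP1). Positions below count from the RefSeq start, over the 250 bases before it. TIMP3 held 5 GC boxes, beginning at -166, -158, -131, -76 and -18 from the start, and an inverted CCAAT box at -88. TIMP1 held 2 GC boxes, beginning at -135 and -45, the second in annotated exon bases beyond the printed stretch. ADAMTS13 held 2, and TIMP4 held 1 with an inverted CCAAT box at -50, all within annotated exons. The GC content was 72.4% for TIMP3, 64.8% for TIMP1, 62.8% for TIMP4 and 61.2% for ADAMTS13, against a median of 58.0% over all 35116 promoters. A GC box was present in 42.6% of all promoters of this length and a CCAAT box in 32.01%. Of the 7 promoters held for the 10 genes (ADAMTS10 has 2), 5 had a GC box and 0 had the AP-1 site TGACTCA, which 4.20% of all promoters held. The cAMP response element TGACGTCA was in 0 of the 7 and in 1.65% of all promoters. These are letter matches, not measured binding sites.

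Per exon length the inhibitors far outweighed the proteases. Dividing CPM by the summed exon length in kilobases, the order of levels in WT was TIMP1 (40.7 ± 4.2 CPM per kb, SD, n = 3), TIMP2 (23.5 ± 0.80), TIMP4 (9.20 ± 1.004), ADAMTS10 (3.01 ± 0.22), RECK (2.14 ± 0.15) and ADAMTS9 (1.70 ± 0.14). ADAMTS15 (1.32 ± 0.16) and ADAMTS7 (1.23 ± 0.04) came next with overlapping libraries. ADAMTS12 followed at 0.647, then ADAMTS13 at 0.201, ADAMTS16 at 0.155, and ADAMTS8, TIMP3 and ADAMTS1 at 0.108, 0.0892 and 0.0726 CPM per kb. ADAMTS8 and TIMP3 overlapped, as did TIMP3 and ADAMTS1. ADAMTS6 was among the lowest, overlapping ADAMTS3. In R98W, TIMP3 and ADAMTS1 ranked above ADAMTS16, at 0.335 and 0.215 CPM per kb, although ADAMTS1 and ADAMTS16 overlapped. ADAMTS13 dropped below ADAMTS8, with overlapping libraries.

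Summed over all 19 ADAMTS genes, the level was 8.82, 8.59 and 8.15 CPM per kb in WT and 9.53, 9.0005 and 10.1 CPM per kb in R98W. The sum over the 4 TIMP genes was 71.7, 78.4 and 70.3 CPM per kb in WT and 57.3, 61.5 and 59.4 CPM per kb in R98W. Both sums stood apart between the groups in opposite directions. The TIMP to ADAMTS ratio was 8.63 ± 0.50 in WT and 6.24 ± 0.52 in R98W (SD, n = 3), with no overlap. TIMP1 and TIMP2 made up most of the TIMP sum, and TIMP3 contributed 0.121% ± 0.006 in WT and 0.563% ± 0.11 in R98W, so its higher level hardly entered the total. ADAMTS1 made up 0.845% ± 0.28 and 2.26% ± 0.40 of the ADAMTS sum. The ratio of TIMP3 to ADAMTS1, which both stood higher in R98W, was 1.35 ± 0.49 in WT and 1.62 ± 0.57 in R98W, with overlapping libraries. These sums are dominated by the genes listed, among them genes selected with this comparison known, and carry no test. Nothing is therefore read from their lack of overlap or from the ratio. The library labelled WT replicate 1 is included, with a TIMP to ADAMTS ratio of 8.13.

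**Figure D2:**
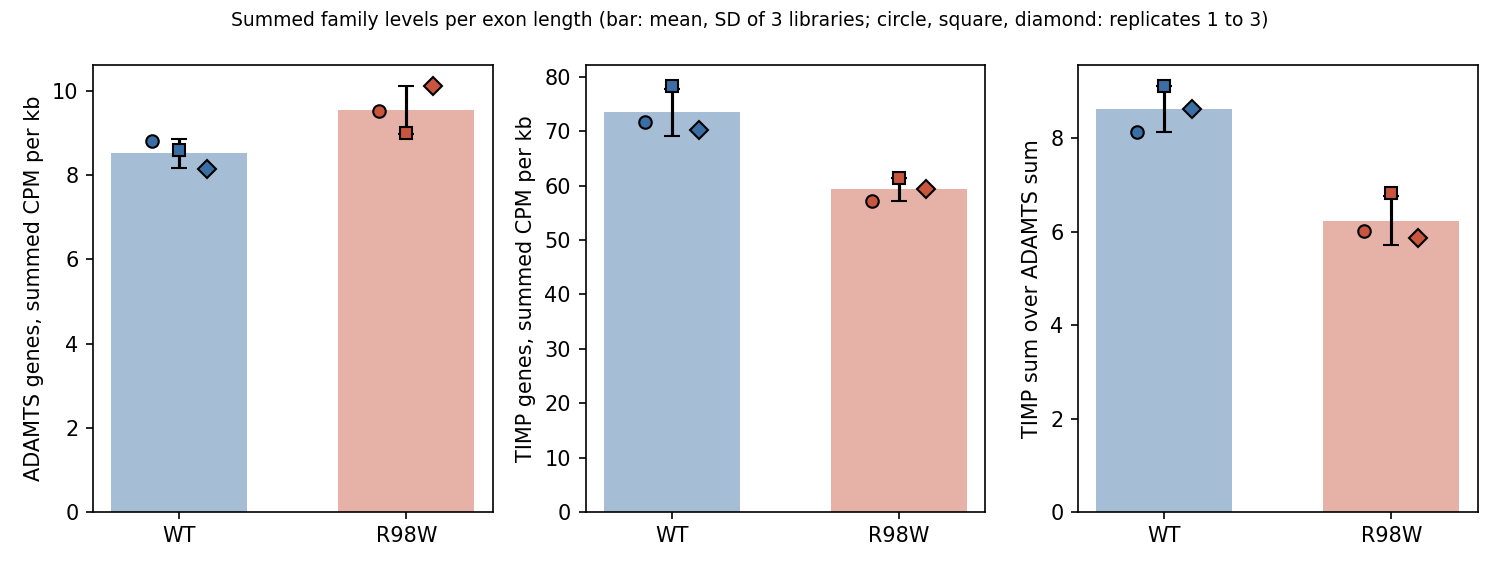
Summed CPM per kb of exon over the 19 ADAMTS genes (left), the 4 TIMP genes (middle) and their ratio (right) in WT and R98W, where bars show the mean, error bars the SD of 3 libraries and symbols the libraries. The ADAMTS sum is slightly higher and the TIMP sum lower in R98W, and the ratio falls between 8.13 and 9.13 in WT and between 5.87 and 6.83 in R98W.

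The other members of both families were not part of the selection. ADAMTS2, the procollagen N-proteinase, rose from 0.139 ± 0.066 to 0.563 ± 0.20 CPM (SD, n = 3), on 6 to 20 counts per WT library and 43 to 84 per R98W library. This is 1.99 on the log2 scale with an SE of 0.44 (edgeR adjusted p = 0.00155), and it stayed past the threshold in every fit that left out a library. The related proteases ADAMTS3 (log2 fold change -0.20, SE 0.58) and ADAMTS14 (0.85, SE 0.67) were not called at 3 to 16 counts per library. ADAMTS12, a relative of ADAMTS7, was not called at -0.12 (SE 0.12), nor was ADAMTS8 at -0.38 (SE 0.34) or ADAMTS16 at 0.23 (SE 0.25). ADAMTS2 was thus the only one of the 6 ADAMTS genes tested outside the selection that was called. Of all 13 tested, 4 were higher and 1 lower, against 16.2% higher and 18.5% lower over all genes, but 7 of the 13 are the selected genes, so nothing is read from this count. Without WT replicate 3 or R98W replicate 3, 2 were higher and 1 lower, and without the library labelled WT replicate 1, 3 and 1. Of the 6 untested members, ADAMTS5 and ADAMTS19 had 0 counts in every library, which allows up to 3 counts or 0.0261 to 0.0316 CPM per library, counting error only. ADAMTS4 and ADAMTS20 had at most 4 counts in any library, ADAMTS17 at most 9 and ADAMTS18 at most 17.

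Both remaining inhibitors, outside the 10 genes but in a list chosen with earlier results known, fell. TIMP4, another secreted TIMP, stood at 13.4, 16.7 and 15.5 CPM in WT and 10.1, 10.2 and 10.7 CPM in R98W. It fell by 0.56 on the log2 scale (SE 0.10, edgeR adjusted p = 0.000195), with no overlap between the groups. The exons of TIMP4 share 170 bases, 10.3% of their length, with SYN2 on the opposite strand, and SYN2 stood at 1.63 and 1.68 CPM in WT and R98W. RECK, a membrane-anchored inhibitor of several matrix metalloproteinases, stood at 12.4, 12.5 and 13.99 CPM in WT and 9.76, 9.86 and 8.93 CPM in R98W. It fell by 0.44 on the log2 scale with an SE of 0.10 (edgeR adjusted p = 0.00138). Of the 5 TIMP and RECK genes, 3 of them selected, 1 was higher and 3 lower, against 16.2% and 18.5% over all genes. These counts held when the library labelled WT replicate 1 was dropped, and nothing is read from them.

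**Figure D3:**
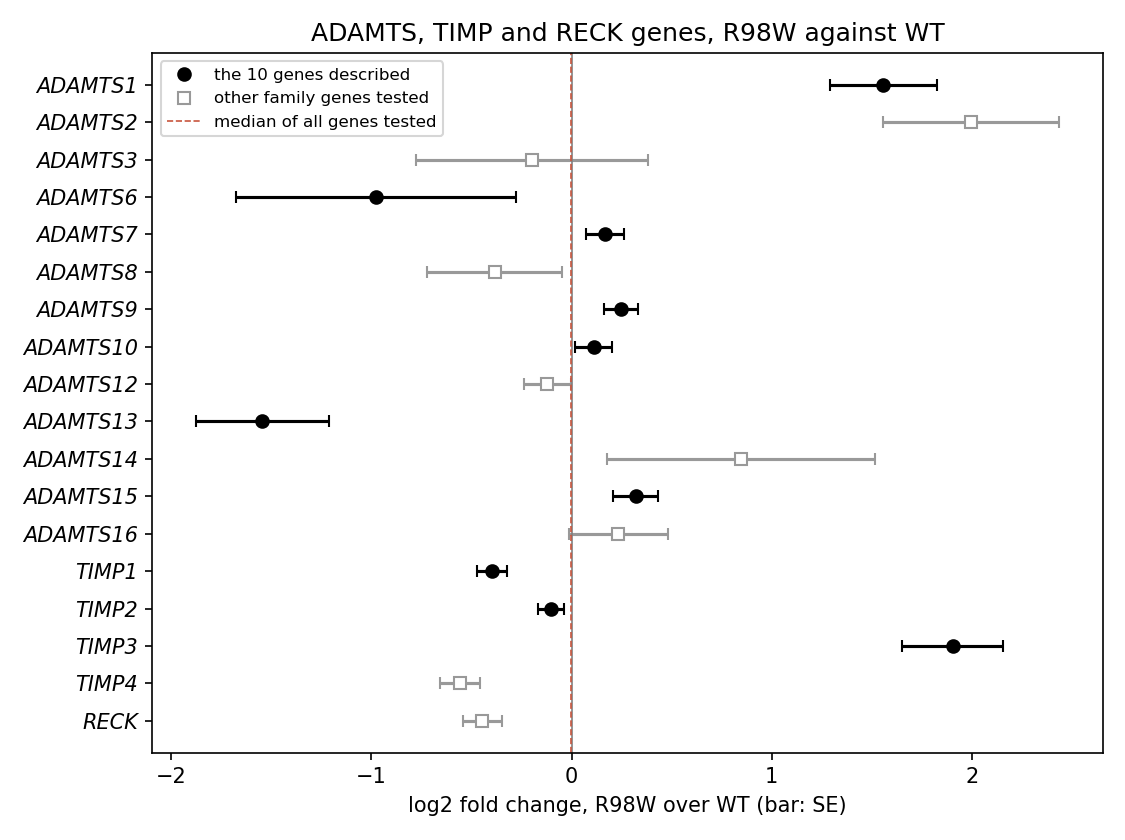
Log2 fold change of R98W over WT with its SE for the 13 ADAMTS genes, 4 TIMP genes and RECK that were tested. Filled circles are the 10 genes described and open squares the other family genes, ADAMTS2 and TIMP3 lie near 2, and TIMP1, TIMP4 and RECK lie between -0.56 and -0.40.

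Genes that mature or clear ADAMTS proteins changed in both directions. FURIN, the proprotein convertase that removes the ADAMTS propeptide, fell from 66.3 ± 3.5 to 37.5 ± 0.84 CPM (SD, n = 3). That was -0.82 on the log2 scale with an SE of 0.07 (edgeR adjusted p = 4.76e-08). LRP1, the endocytic receptor that takes up ADAMTS enzymes and TIMP3, fell from 92.0 ± 8.4 to 56.2 ± 4.6 CPM. That was -0.71 on the log2 scale with an SE of 0.08 (edgeR adjusted p = 1.32e-06). DPY19L1, a mannosyltransferase that modifies thrombospondin-type repeats, rose from 214.7 ± 18 to 339 ± 15 CPM (edgeR adjusted p = 9.30e-07), and it has related copies in the genome between which reads may be split. PCSK7, another proprotein convertase, was called lower (log2 fold change -0.27, SE 0.09, edgeR adjusted p = 0.0323) but not without WT replicate 3, R98W replicate 1 or R98W replicate 2 (edgeR adjusted p = 0.116, 0.165 and 0.0904). It lost the call as well after the corrections for expression level (0.125) and exon length (0.0728). Of 9 tested genes 1 was higher and 3 lower, with a median of 0.02, against 16.2% higher and 18.5% lower over all genes. POFUT2 and B3GLCT, which add sugars to the same repeats, were among the 5 not called. As this list was chosen with earlier results known, nothing is read from its counts.

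Of 15 tested substrates and matrix partners of the ADAMTS enzymes, 8 were lower and 1 higher, against 18.5% lower and 16.2% higher over all genes. Their median log2 fold change was -0.37. Leaving out the library labelled WT replicate 1 did not alter either count. The list was chosen with earlier results of these data known, so nothing is read from this count. FBN2, a fibrillin, fell from 74.1 ± 3.6 to 45.002 ± 2.6 CPM (SD, n = 3). That was -0.72 on the log2 scale with an SE of 0.07 (edgeR adjusted p = 2.89e-07). Fibronectin (FN1), by far the most abundant of them, fell from 2383 ± 209 to 1679 ± 215 CPM (log2 fold change -0.51, SE 0.08, edgeR adjusted p = 0.000102). The latent TGF-beta binding protein LTBP2 fell by 0.61 and FBLN1, an ADAMTS1 cofactor, by 0.54 on the log2 scale (edgeR adjusted p = 4.36e-05 and 9.26e-05). The gene called higher was the fibrillin FBN1 (log2 fold change 0.36, SE 0.08), named after its value was seen. Versican (VCAN), the shared substrate of ADAMTS1, ADAMTS9 and ADAMTS15, stood at 209.9 ± 11 CPM in WT and 205 ± 23 CPM in R98W and was not called, and it too was named after its value was seen. Aggrecan (ACAN) had 0 to 4 counts per library. ACAN, VWF, POFUT2 and B3GLCT lie outside the naming rule and were likewise named after their values were seen.

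Other metalloproteinases went both ways. Of the 9 matrix metalloproteinases tested, 2 were higher and 1 lower, with a median of -0.01. Over all genes 16.2% were higher and 18.5% lower. Without the library labelled WT replicate 1 the counts were 2 and 0, and nothing is read from them. MMP28, also called epilysin, rose from 2.104 ± 0.25 to 3.66 ± 0.22 CPM (SD, n = 3). That was 0.80 on the log2 scale with an SE of 0.15 (edgeR adjusted p = 0.000414). The membrane-bound MMP24 was higher at 0.27 (SE 0.07, edgeR adjusted p = 0.00593) but not called without WT replicate 3 (0.0513), and it overlaps MMP24OS on the opposite strand over 18.1% of its exon length. MMP17 was lower at -0.45 (SE 0.14, edgeR adjusted p = 0.0202), a call that ended without the library labelled WT replicate 1 (0.0537), WT replicate 3 (0.0816) or R98W replicate 2 (0.133), and after the correction for expression level (0.0864). MMP2, whose activation involves TIMP2, had a log2 fold change of -0.33 (SE 0.14) and was not called.

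Of 13 ADAM genes tested, 5 were higher and 6 lower, against 16.2% higher and 18.5% lower over all genes, with a median of -0.08. Without the library labelled WT replicate 1 the counts were again 5 and 6, and without R98W replicate 3 they were 3 and 4. This list too was chosen with earlier results known, so nothing is read from its counts. The membrane sheddases ADAM9 and ADAM17, the latter a known target of TIMP3, rose by 0.34 and 0.31 on the log2 scale (edgeR adjusted p = 0.000322 and 0.00143). ADAM9 was not called after the correction for expression level (edgeR adjusted p = 0.0600), and ADAM17 overlaps IAH1 on the opposite strand over 12.3% of its exon length. ADAM23, a non-catalytic adhesion protein, fell from 36.1 ± 0.98 to 25.5 ± 1.8 CPM (SD, n = 3, edgeR adjusted p = 4.73e-05). ADAM21 had 14, 30 and 26 counts in WT and 0, 0 and 1 in R98W (edgeR log2 fold change -5.64, edgeR adjusted p = 0.000104). Counts pooled within each group, apart from the edgeR fit, gave a WT level 68.0 times that of R98W. The exact (Clopper-Pearson) 95% counting interval of this pooled ratio was 11.8 to 2722. ADAM21 has a close pseudogene copy, so its counts are uncertain.

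Among the ADAMTS-like proteins, which share the repeats but lack the protease domain, 0 were higher and 1 lower of 5 tested by edgeR, with 2 at an unadjusted p under 0.05 and a median of 0.04. limma-voom and the DESeq2 Wald test also called 1, and over all genes edgeR called 16.2% higher and 18.5% lower. ADAMTSL4 was lower at -0.57 (SE 0.19, edgeR adjusted p = 0.0281), and it was not called without WT replicate 3 (0.142) or R98W replicate 1, 2 or 3 (0.0881, 0.0511 and 0.0623), nor after the correction for expression level (0.0905). PAPLN had 0.32 (SE 0.15) and was called only without the library labelled WT replicate 1 (edgeR adjusted p = 0.0247) and after the corrections for expression level (0.0356) and GC content (0.0291). THSD4, the most abundant of them at 211 ± 7.3 CPM in WT, had 0.10 (SE 0.07), and ADAMTSL5 had -0.14 (SE 0.19).

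**Figure D4:**
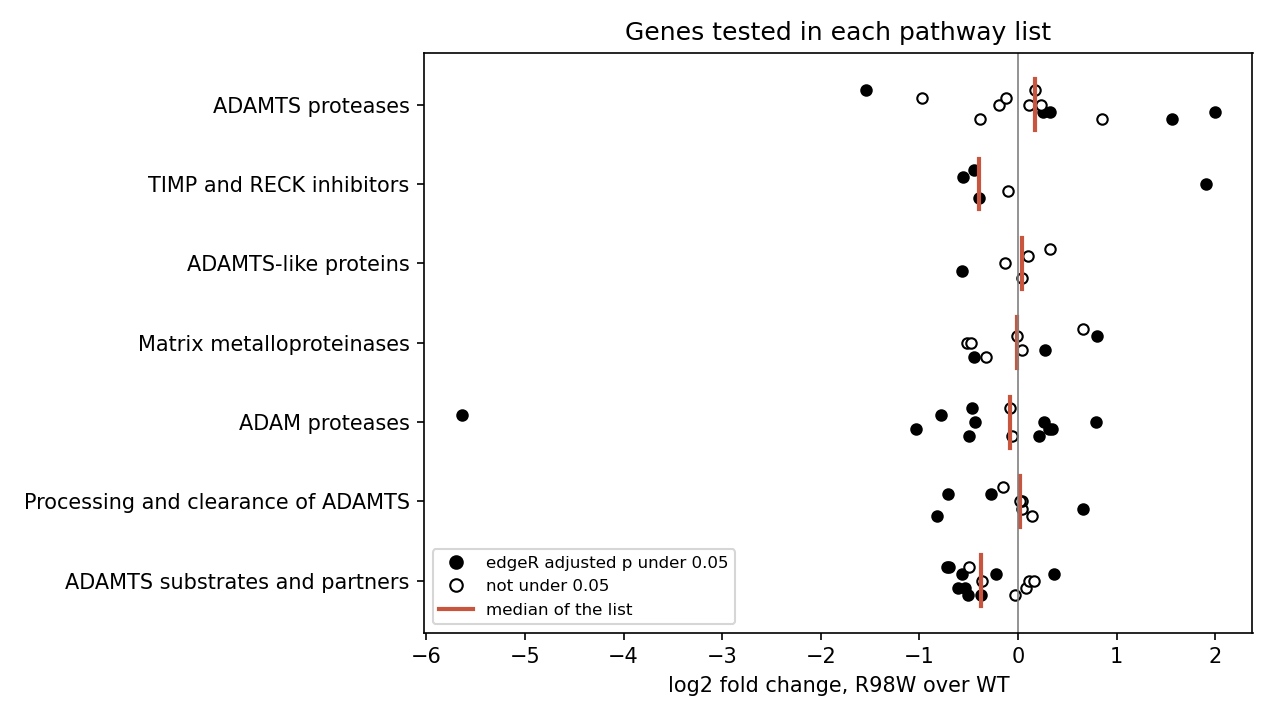
Log2 fold change of R98W over WT for each gene tested in the 7 lists, filled where the edgeR adjusted p was under 0.05, with a red line at each list's median. The substrate list has its median at -0.37, the ADAMTS and TIMP lists include the selected genes, the point near -5.6 is ADAM21 with 1 count in R98W, and the median of all genes is -0.0047.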

How the data were processed

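Poly(A) RNA of 6 A549 libraries was measured, with groups and replicate numbers from the sample titles. Values in the deposited table are unnormalized gene counts, made by the authors for each library. Tools listed in the submitters' processing notes are HTSeq 0.11.3, HISAT2 2.1.0 and CASAVA 1.8, with build hg38. Neither annotation nor strand setting is stated there, so reads of genes that overlap on opposite strands cannot be told apart. Symbols, positions and exon lengths came from GENCODE release 29, which matched 58676 of 58721 rows by identifier (the rest are pseudoautosomal copies on Y).

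Counts were filtered with filterByExpr (minimum count 10, minimum total 15), scaled by TMM and tested with edgeR 4.0.16 (glmQLFit, glmQLFTest) in R 4.3.3 over 20713 genes without covariates. P-values were adjusted by Benjamini-Hochberg with a threshold of 0.05. SEs were taken from the test statistic. The common biological coefficient of variation was 10.0%. The fit was tested on simulated data. Alternatives used limma 3.58.1 (voom), DESeq2 1.42.0, other scalings and filters, a threshold of 0.01, each library left out, a replicate block and per-library lowess corrections. No pair of libraries within a group agreed within counting noise.

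The members and lists were chosen with earlier results of these data known. Named genes were the 10 members, all other tested ADAMTS, TIMP and RECK genes, the 4 genes of each other list with the smallest p, and KAT8.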

Additional observations from a re-analysis of the deposited data

How the results depend on the processing

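For the 10 genes, 157 of 169 alternative results kept direction and side of the threshold and 0 reversed. Of the others, 9 lost the call (all ADAMTS9 or ADAMTS15) and 3 gained it (ADAMTS6, ADAMTS7 and TIMP2). The threshold of 0.01 reuses the main log2 fold changes, so direction could not change there. The other alternatives share most or all libraries and are not independent. ADAMTS6 gave no value with at least 50 counts in 3 libraries. The number of the 10 genes called ran from 4 to 6 over the fits that left out a library, and was 4 at a threshold of 0.01. Over all genes, 5400 to 7212 were called when a library was left out, against 7203, and 4763 at a threshold of 0.01. More genes were called lower than higher in every setting run except the corrections for exon length (3952 higher, 3578 lower) and GC content (3885 and 3716). Called ADAMTS proteases ran from 3 to 5 with a library left out and were 3 at 0.01. Called ADAM proteases ran from 7 to 11 with a library left out, were 7 at 0.01 and 6 after the correction for expression level. Called ADAMTS-like genes ran from 0 to 2 with a library left out (edgeR, with 0 to 2 at an unadjusted p under 0.05), were 0 at 0.01 and 2 after the correction for GC content. The causes of these shifts were not tested, beyond the fewer libraries and the stricter threshold themselves. With the replicate number as a block 6883 genes and 6 of the 10 were called. Deviations of same-numbered libraries from their group means correlated at 0.0056, -0.039 and -0.037, and 1 of 6 libraries correlated best with its own number. These values show no pairing by number, but with 3 libraries per group they cannot exclude shared cultures or batches. Depth limits ADAMTS6, ADAMTS2 and the untested ADAMTS genes, at few counts per library.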
